A study of Homo sapiens with 40 samples.

Results

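Genes that mark T cells and natural killer (NK) cells were followed in 10 B-cell lymphoma lines, before and after inhibition of the histone methyltransferase EZH2. The set was a list of 32 named genes: T cell surface proteins and CD3 chains, kinases and adaptors of T cell receptor signalling, lineage transcription factors, and NK receptors with cytotoxic granule proteins. A probe set with that gene as its 1 symbol was found for 31 of them among 19775 genes on the array, and TCF7 was not analysed here. Each gene was read from the probe set of that kind with the highest mean over all 40 arrays. Of the 31 genes, 22 passed the filter on low values and were tested, and 9 did not.

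All 10 lines are established human lines of diffuse large B-cell lymphoma, so each genotype is represented by a few tumour clones and no normal B cells were compared. EZH2 is mutant in 7 lines (DB, KARPAS-422, Pfeiffer, SU-DHL-4, SU-DHL-6, SU-DHL-10 and WSU-DLCL2) and wild type in 3 (HT, OCI-LY-19 and Toledo). Each line was cultured for 72 h with 0.1% DMSO, the vehicle, or with 500 nM GSK126, an inhibitor of EZH2, on 2 arrays each. The growth IC50 of GSK126 ran from 28 nM in Pfeiffer to 13786 nM in Toledo. The titles name both arrays as biological replicates, but nothing states how their cultures differed, so p-values measure a spread that may be partly technical.

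A mature B cell normally keeps the genes of the T and NK lineages off. CD3 chains and CD247 form the signalling part of the T cell receptor, LCK and ZAP70 are the tyrosine kinases that act first when it is engaged, and LAT is the adaptor on which later signals assemble. EZH2 is the catalytic subunit of Polycomb repressive complex 2, which places the H3K27 methyl marks found at many genes of other lineages. Some of the proteins are also known outside the T lineage: LCK in germinal centre B cells and their lymphomas, and LEF1 and CD5 in subsets of B cell malignancy.

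Levels are given as log2(signal + pseudocount), where the signal is the scaled array intensity and the pseudocount of 17.7 damps the scatter of dim probe sets. The median of all probe sets on an array lay between 6.26 and 6.73 on this scale. A gene was scored as above that median in a line when both DMSO arrays were above it, as below when both were not, and as mixed otherwise. Differences are log2 fold changes, GSK126 minus DMSO, with the standard error of the fit. They understate the change of dim genes, and levels of different genes come from different probes and are not set against each other. Array replicates correlated at 0.973 to 0.985. Of 12 B cell markers measured, 8 were above the median in Pfeiffer and 10 to 12 in each of the other 9 lines, with CD79B and PAX5 above it in all 10. MS4A1, which encodes CD20, was at 5.64 in OCI-LY-19.

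Upstream sequences are shown for 4 genes that stand for the patterns described here: CD3D was high in 1 line, CD247 was above the median in all lines, LCK was high in 6 lines and lower in 4, and TBX21 rose from below to above the median under GSK126 in HT. They are the 250 bases before a RefSeq start site in assembly GRCh38.p14, written 5′ to 3′ on the gene's strand, with the dinucleotide CG in capitals. The array files name no genome build, and these coordinates belong to the RefSeq table.
CD3D, chr11:118342706-118342955, minus strand: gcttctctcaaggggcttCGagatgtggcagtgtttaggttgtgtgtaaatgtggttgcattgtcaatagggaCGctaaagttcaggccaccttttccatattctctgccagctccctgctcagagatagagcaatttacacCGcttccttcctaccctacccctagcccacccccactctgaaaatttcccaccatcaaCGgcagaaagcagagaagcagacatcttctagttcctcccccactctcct
CD247, chr1:167518530-167518779, minus strand: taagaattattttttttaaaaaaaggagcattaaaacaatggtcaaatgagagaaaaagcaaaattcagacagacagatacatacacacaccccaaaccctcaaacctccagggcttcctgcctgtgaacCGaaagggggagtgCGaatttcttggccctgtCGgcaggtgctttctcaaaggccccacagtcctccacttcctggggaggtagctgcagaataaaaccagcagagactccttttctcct
LCK, distal start, chr1:32251015-32251264, plus strand: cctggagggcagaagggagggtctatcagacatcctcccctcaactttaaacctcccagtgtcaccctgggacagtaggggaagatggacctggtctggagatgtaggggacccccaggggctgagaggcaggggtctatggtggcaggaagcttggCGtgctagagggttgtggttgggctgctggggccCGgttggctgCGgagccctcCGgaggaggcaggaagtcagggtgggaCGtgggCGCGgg
LCK, proximal start, chr1:32273871-32274120, plus strand: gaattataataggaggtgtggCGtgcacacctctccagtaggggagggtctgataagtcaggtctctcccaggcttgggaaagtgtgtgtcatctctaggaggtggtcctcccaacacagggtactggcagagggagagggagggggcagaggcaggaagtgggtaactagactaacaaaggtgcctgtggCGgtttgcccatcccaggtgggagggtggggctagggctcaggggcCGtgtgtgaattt
TBX21, chr17:47732986-47733235, plus strand: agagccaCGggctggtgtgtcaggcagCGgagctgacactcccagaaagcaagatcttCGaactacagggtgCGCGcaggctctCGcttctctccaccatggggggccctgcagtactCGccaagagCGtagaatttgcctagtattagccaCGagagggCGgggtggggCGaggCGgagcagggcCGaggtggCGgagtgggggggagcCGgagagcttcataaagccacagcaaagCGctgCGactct
The motif searched was CG, which reads the same on both strands and cannot overlap itself. CD3D held 4 such dinucleotides and CD247 held 3. The LCK starts held 7 and 3, and TBX21 held 17. Of the 35116 promoters in the table, 70.7% held at least as many as CD3D and 77.1% at least as many as CD247, against 39.0% for TBX21. The median over all promoters was 11. Over the 30 start sites listed for 22 of the 32 genes, it was 5, and 6 of these sites held more than 11.

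In vehicle most of the T and NK genes were dim, and a few were bright in some or all lines. Of the 310 pairs of gene and line, 75 were above the array median, 207 below it and 28 mixed, whereas 55.1% of all gene-line pairs on the array were above. In bulk RNA, fewer cells of a type and less RNA per cell cannot be told apart. In no line were 15 of the 31 genes above the median on both DMSO arrays, a state shared by 29.5% of all genes. PRF1 and CD247 were above it in all 10 lines, as were 42% of all genes. CD3E, LCK and LAT were above it in 9 lines and LEF1 in 8. The number of these genes above the median was 6 to 10 per line, lowest in DB, SU-DHL-4 and Toledo and highest in KARPAS-422.

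**Figure D1:**
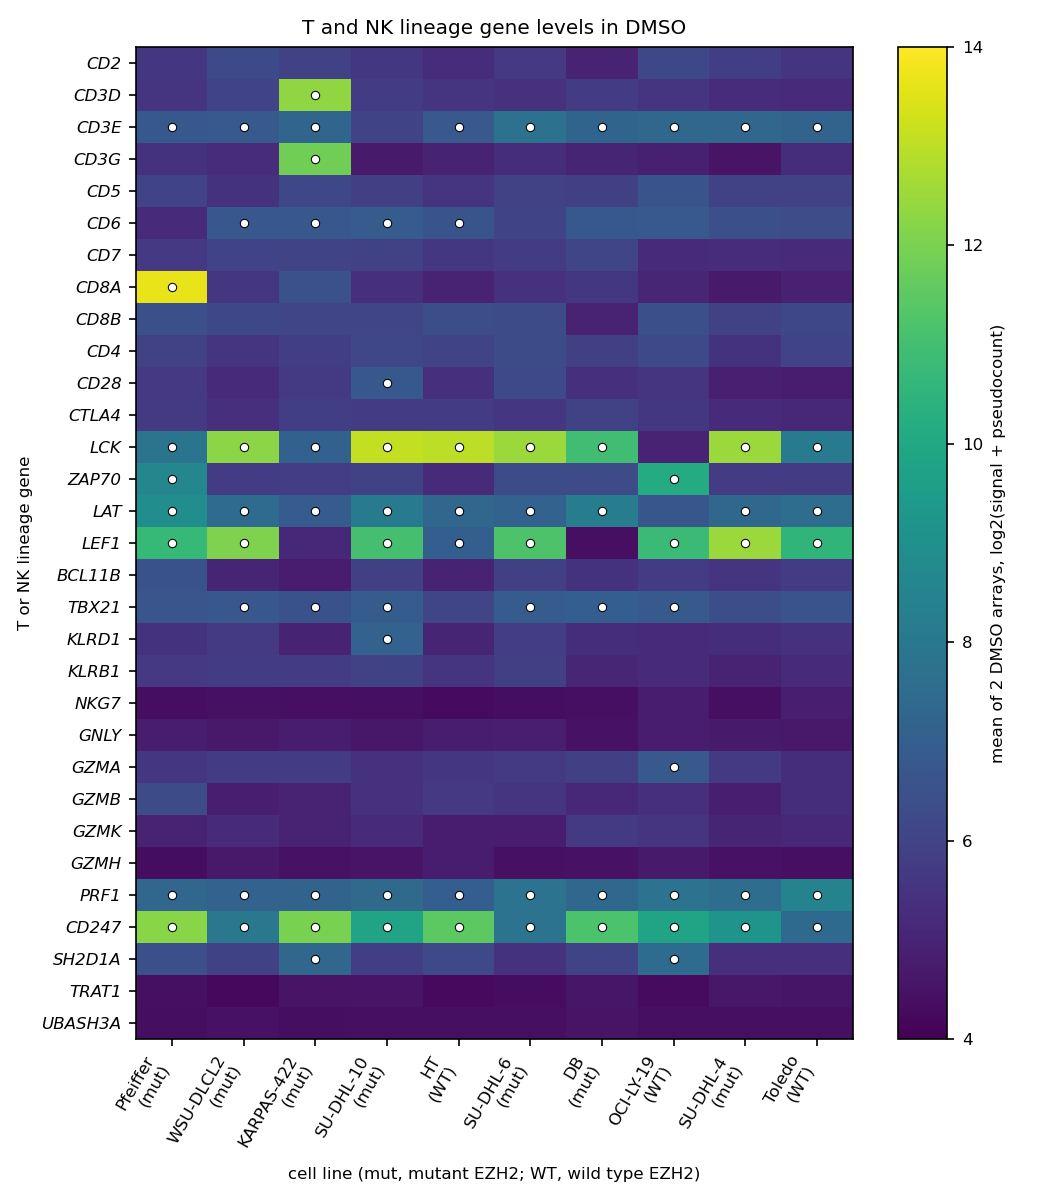
Colour gives the mean of 2 DMSO arrays, log2(signal + pseudocount), for 31 T and NK lineage genes (rows) in 10 lines (columns); a white point marks a gene above the array median on both DMSO arrays. Isolated bright cells mark CD3D and CD3G in KARPAS-422 and CD8A in Pfeiffer, while CD247, LCK and LEF1 are bright across several lines.

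Among the surface proteins, CD3D and CD3G were high in KARPAS-422 and low elsewhere. CD3D read 12.39 and 12.29 on the KARPAS-422 DMSO arrays, and its mean in the next line, WSU-DLCL2, was 6.02. CD3G read 11.94 and 11.74 there, and its next mean was 5.41 in Pfeiffer. The arrays of KARPAS-422 did not overlap those of any other line for either gene. CD3E, which encodes the remaining CD3 chain and lies next to CD3D on chromosome 11 in the RefSeq gene table, did not follow that pattern. Its DMSO means ran from 6.07 in SU-DHL-10 to 7.72 in SU-DHL-6, with 7.14 and 7.37 in KARPAS-422. Over all 40 arrays CD3E had a lowest value of 5.21, a median of 6.99 and a highest of 8.04.

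CD8A, the alpha chain of the CD8 coreceptor, was high in Pfeiffer. It read 13.68 and 13.65 there, and the next DMSO mean was 6.47 in KARPAS-422. CD8B, the partner chain, was read differently by its probe sets. The one with the highest mean read 6.53 and 6.35 in Pfeiffer, below the array median. Another read 8.83 and 8.94 in Pfeiffer, with a highest mean in the other lines of 4.90 in WSU-DLCL2. A further probe set read 7.97 and 7.99 in Pfeiffer, with 6.24 in Toledo as the next mean. By those 2 probe sets CD8B was high in the line where CD8A was high. Pfeiffer also had EPCAM, an epithelial adhesion protein, at a mean of 13.57 and KRT18, an epithelial keratin, at 8.70. Each was above the median in Pfeiffer and in no other line. These are 2 of 8 stromal and epithelial markers measured, of which 4 were above the median in Pfeiffer, and the others did not share this pattern. CDH1 was above it in no line, KRT8 was highest in OCI-LY-19 at 7.41, and DCN was highest in KARPAS-422 at 13.87. The part of these other markers in the CD8 levels was not tested. MS4A1 stood at 14.26 in Pfeiffer.

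The other surface proteins were near or below the median. CD28, the costimulatory receptor, reached 6.73 and 6.81 in SU-DHL-10, and its means in the other 9 lines were 4.77 to 6.22. CD6 was above the median in 4 lines, with means between 5.21 in Pfeiffer and 6.90 in SU-DHL-10. CD2, CD5, CD7, CD4 and CTLA4 were above it in no line, and the highest mean of any of them was 6.60, for CD5 in OCI-LY-19.

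The proximal signalling genes differed widely between lines. LCK formed a high group of 6 lines. SU-DHL-10 read 13.10 and 13.06, HT 13.06 and 12.97, SU-DHL-6 12.53 and 12.50, SU-DHL-4 12.45 and 12.55, WSU-DLCL2 12.32 and 12.17, and DB 10.98 and 10.85. SU-DHL-10 and HT met at 13.06, and SU-DHL-6 and SU-DHL-4 overlapped. Toledo at 8.06 and 8.21, Pfeiffer at 7.82 and 7.85 and KARPAS-422 at 6.82 and 7.39 were lower without overlapping the high group. OCI-LY-19 was lowest, at 5.23 and 4.73. The second LCK probe set read 6.25 and 5.86 in OCI-LY-19 and 6.81 and 6.89 in KARPAS-422.

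ZAP70, the kinase that acts with LCK, was highest in the line where LCK was lowest. It read 10.21 and 10.06 in OCI-LY-19 and 8.74 and 8.54 in Pfeiffer, and its means in the other 8 lines were 5.24 to 6.33. A second ZAP70 probe set was likewise above the median in these lines, at 9.45 and 9.63 in OCI-LY-19 and 8.30 and 8.13 in Pfeiffer. With 10 lines and 2 genes picked after their values were seen, this contrast is a description.

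CD247, the zeta chain through which the T cell receptor and some NK receptors signal, was above the median on all 40 arrays. Pfeiffer read 12.10 and 12.38 and KARPAS-422 12.01 and 11.94. HT followed at 11.51 and 11.44 and DB at 11.18 and 11.16. OCI-LY-19 at 10.01 and 9.67 overlapped SU-DHL-10 at 9.78 and 9.89. SU-DHL-4 read 9.17 on both arrays, WSU-DLCL2 at 7.82 and 8.19 overlapped SU-DHL-6 at 7.63 and 7.99, and Toledo was lowest at 7.60 and 7.25. Its other probe set stood at 4.96 in KARPAS-422 and 5.16 in SU-DHL-10. LAT ranged from a lowest array of 6.45 through a median of 7.28 to a highest of 9.03, with its highest DMSO mean, 8.92, in Pfeiffer. SH2D1A, the adaptor SAP of T and NK cells, was above the median in OCI-LY-19 at 7.62 and 7.40 and in KARPAS-422 at 7.23 and 7.40. TRAT1 and UBASH3A, a T cell receptor adaptor and a regulator of its signalling, were above the median on none of the 40 arrays.

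**Figure D2:**
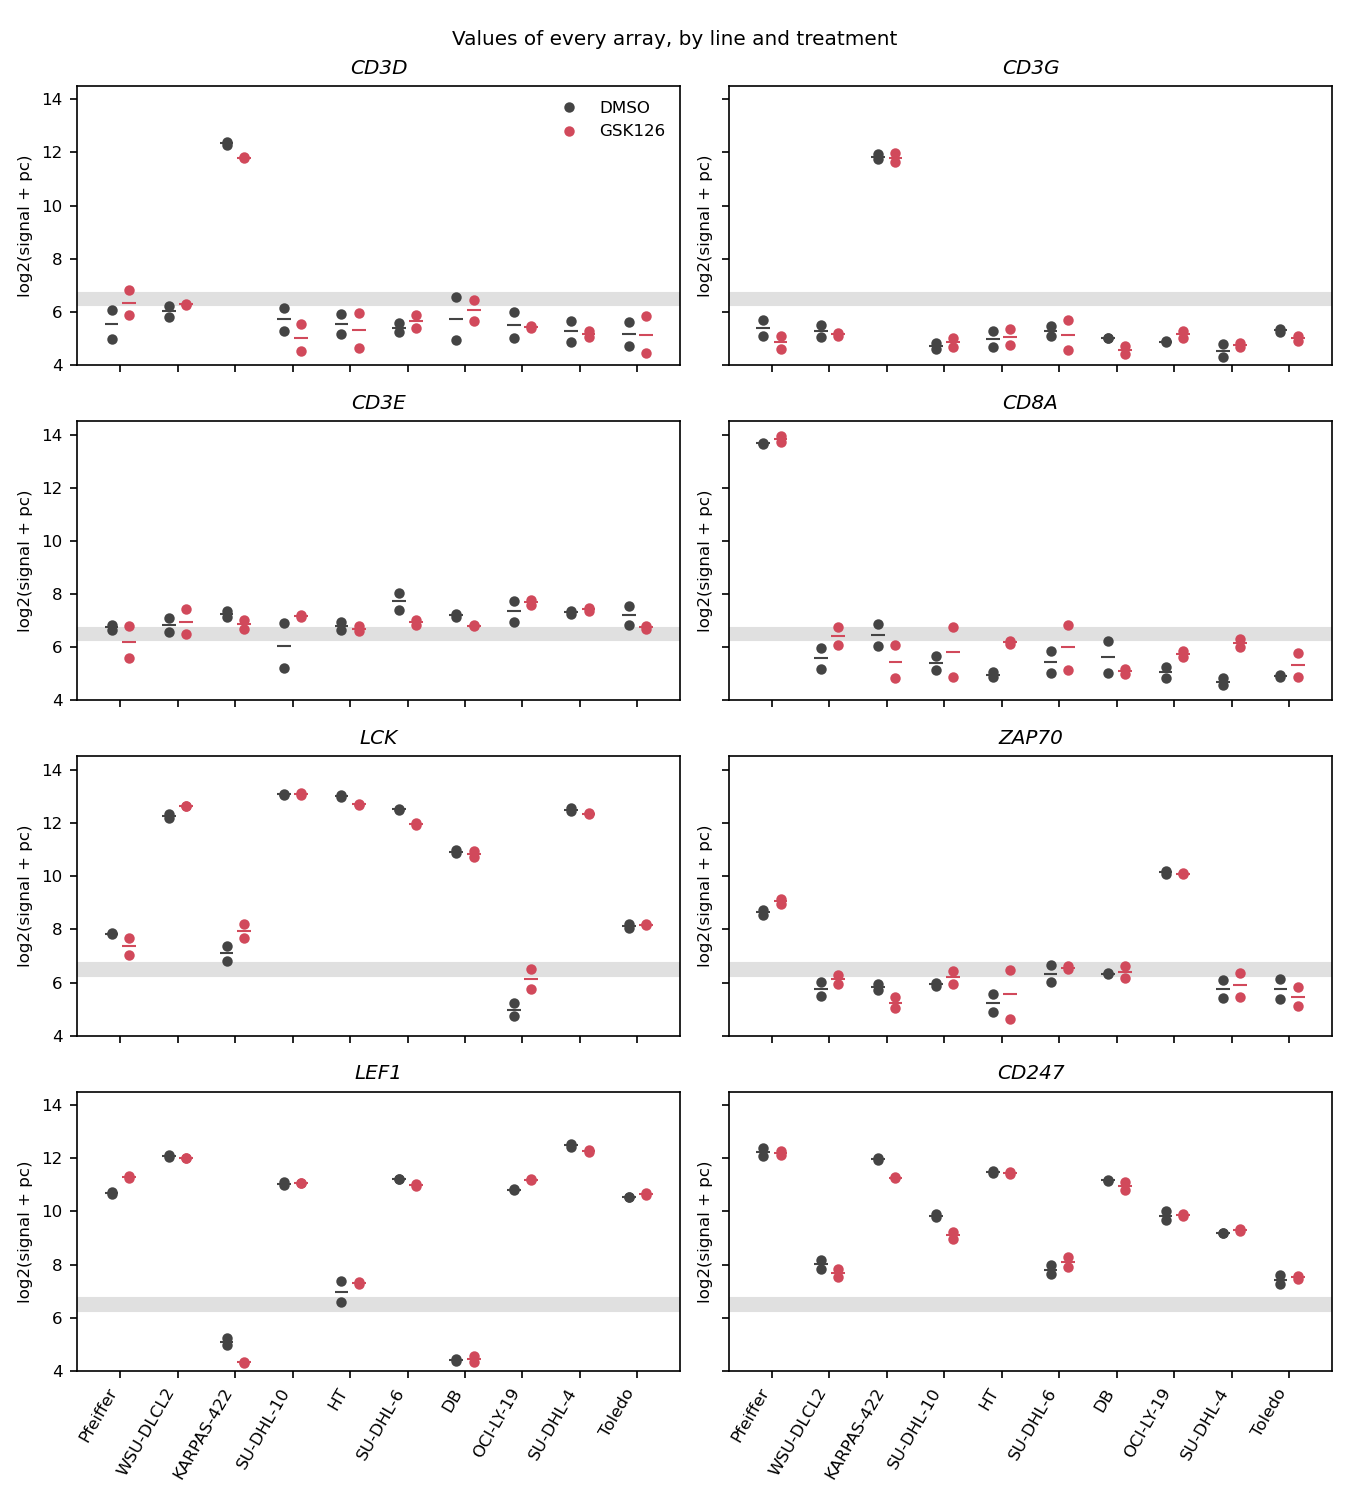
Each point is 1 array, log2(signal + pseudocount, pc) on the vertical axis, for 8 genes in 10 lines, with DMSO in grey and GSK126 in red, short bars at the mean of 2 arrays, and a grey band over the range of array medians. CD3D and CD3G lie near 12 in KARPAS-422, CD8A near 14 in Pfeiffer, and the spread between lines exceeds the gap between treatments.

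Of the transcription factors, LEF1, a partner of beta-catenin in early lymphocytes, divided the lines. SU-DHL-4 read 12.43 and 12.53, WSU-DLCL2 12.10 and 12.05, SU-DHL-6 11.21 and 11.21, and SU-DHL-10 11.11 and 10.98. OCI-LY-19 read 10.81 and 10.83, Pfeiffer 10.72 and 10.67, and Toledo 10.53 and 10.54. These 7 lines were apart from HT at 7.37 and 6.57, KARPAS-422 at 4.96 and 5.23 and DB at 4.46 and 4.39. TBX21, which encodes T-bet, the T helper 1 and NK factor, lay close to the median throughout, with DMSO means of 6.10 in HT to 6.99 in DB. BCL11B, required for T cell commitment, was above the median in no line and highest in Pfeiffer at 6.70 and 6.32.

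The NK receptors and granule proteins were mostly below the array median. PRF1, perforin, was above the median on all 40 arrays, with a lowest value of 6.90, a median of 7.66 and a highest of 8.79. KLRD1, the NK receptor CD94, read 7.32 and 6.94 in SU-DHL-10, and its means elsewhere were 5.01 to 5.82. The other KLRD1 probe sets read 6.56 and 6.65, and 7.12 and 7.50, in SU-DHL-10, above the array median as well. GZMA, granzyme A, reached 6.93 and 6.63 in OCI-LY-19 and no more than a mean of 5.88 in another line. GZMB was above the median in DMSO in no line, with 6.20 and 6.37 in Pfeiffer as its highest pair. NKG7, GNLY, GZMK, GZMH, KLRB1, and CTLA4 among the surface proteins, were above the median on none of the 40 arrays.

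No difference in vehicle level between EZH2 genotypes was called. With the line as the replicate, 7 mutant lines against 3 wild type lines, limma called none of the 22 tested genes at an adjusted p under 0.05, and none had an unadjusted p under 0.05. Across the array 0.0526% of genes were called in that comparison. CD7 had the lowest adjusted p, 0.671 by limma, with means of 5.82 in mutant and 5.36 in wild type lines. CD3D differed by 1.17 ± 1.34 between genotypes, with 1 mutant line carrying its high value. A line count of 7 and 3 leaves wide intervals, and no difference being called does not show that the genotypes were alike.

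GSK126 changed few of these genes. Summed over the 10 lines, 11 of 220 tested gene-line pairs were called, 7 risen and 4 fallen, or 5%. Over all genes the share was 12.7% (7.55% risen and 5.13% fallen), with 6.24% of pairs that were below the median in DMSO and 15.4% of pairs above it. The 11 calls belonged to 6 genes: CD5, CD8B, LCK, LEF1, TBX21 and CD247. Of the 220 pairs, 2 were called risen and went from below the median on both DMSO arrays to above it on both GSK126 arrays, against 0.613% of all pairs. These were TBX21 in HT and CD5 in SU-DHL-6. A count of 2 is too small to be read as differing from that share. CD5 would not have passed the filter on low values without its GSK126 arrays in SU-DHL-6. When each line was fitted alone, on its own 4 arrays, 4 of the 11 calls held: TBX21 in HT, LEF1 in Pfeiffer, and CD247 in KARPAS-422 and SU-DHL-10.

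By line, 3 of 22 genes were called in Pfeiffer, where 24.6% of all genes were called, and 3 in KARPAS-422, where 28.9% were. None was called in WSU-DLCL2, against 26.6% of all genes, and 3 of its 22 genes had an unadjusted p under 0.05. One gene each was called in SU-DHL-10 (18.2% of all genes), HT (9.32%), SU-DHL-6 (11%), DB (3.12%) and OCI-LY-19 (2.41%). None was called in SU-DHL-4 (2.6%) or Toledo (0.164%), where 2 and 1 genes had an unadjusted p under 0.05. The median log2 fold change of the 22 genes ran from -0.16 in KARPAS-422, where that of all genes was 0.01, to 0.16 in Pfeiffer, where it was 0.07. GSK126 was higher than DMSO in 113 of the 220 pairs.

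**Figure D3:**
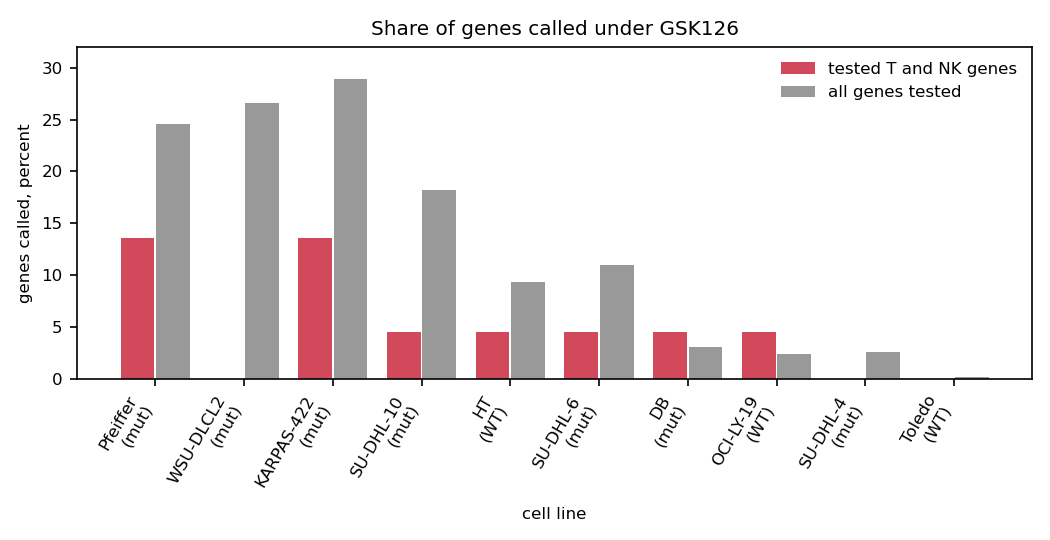
Bars give the percentage of genes called by limma at an adjusted p under 0.05, GSK126 against DMSO, in each line, for the 22 tested T and NK genes (red) and all 15211 genes tested (grey). The red bar stands at 13.6% in Pfeiffer and KARPAS-422, below the grey bars of 24.6% and 28.9%, and is absent in WSU-DLCL2, SU-DHL-4 and Toledo.

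**Figure D4:**
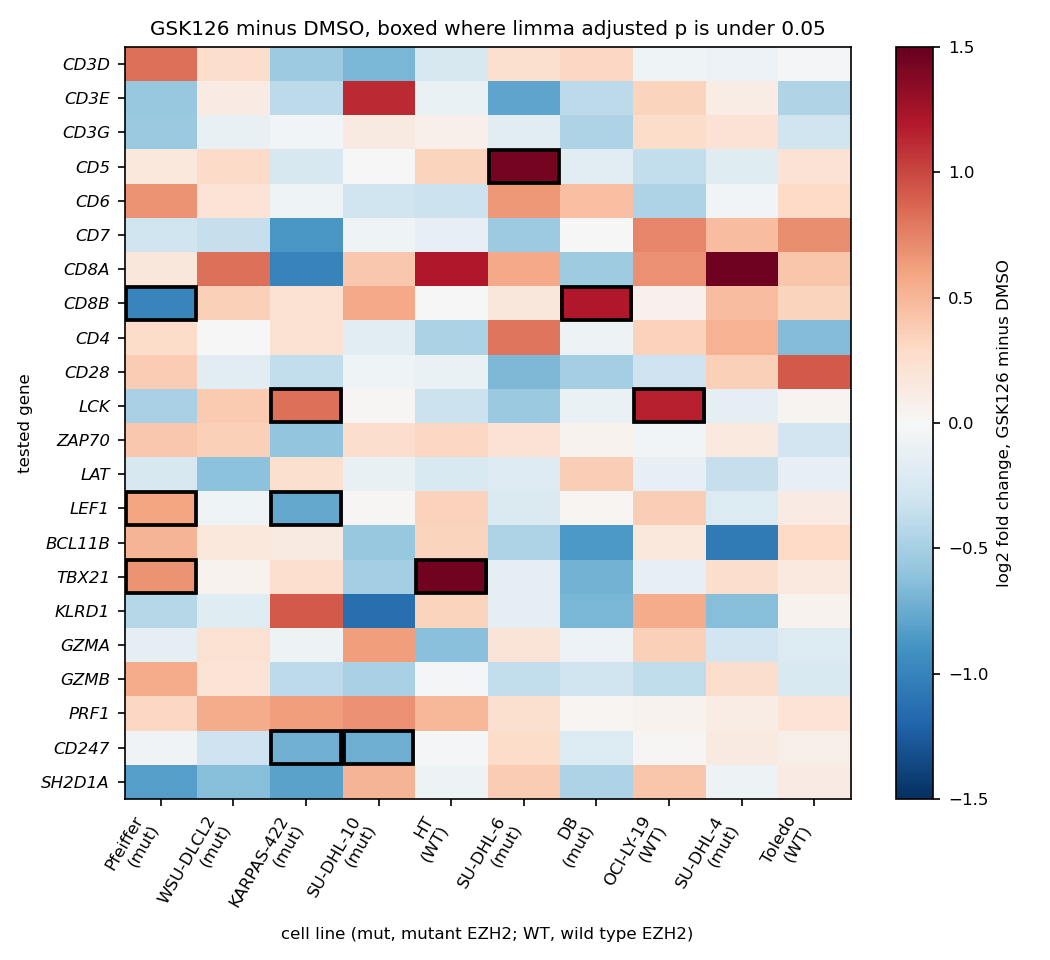
Colour gives the log2 fold change, GSK126 minus DMSO, of 22 genes (rows) in 10 lines (columns), and black frames mark the 11 pairs called by limma. The frames are scattered over 6 genes and 7 lines, and no row is framed in more than 2 lines.

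TBX21 rose most clearly. In HT, a wild type line, it read 5.98 and 6.23 in DMSO and 7.46 and 7.65 in GSK126. The groups did not overlap and the change was 1.45 ± 0.21 (limma adjusted p 1.9e-05). This call held under each of 14 alternatives, with estimates from 0.84 to 1.72. Of the T cell markers, 7 of 8 of which belong to the gene set, 0 of 7 tested were called in HT. The sum of 8 measured markers was 51.3 to 52.9 in DMSO and 51.4 to 52.6 in GSK126. For the 7 NK markers it was 39.9 to 40.6 and 38.8 to 41.2, and again 0 of 4 tested were called. Over all genes 9.32% were called in HT, so 0 calls among so few markers are not read as a result about them. Of the NK markers, KLRD1, NKG7, GNLY and PRF1 belong to the gene set, and NKG7, GNLY and NCR1 were too dim to be tested. Since the sums add log2 levels, many of them dim and from the set itself, they are no separate measure of T or NK cell content. In Pfeiffer TBX21 read 6.76 and 6.49, then 7.10 and 7.50, a rise of 0.67 ± 0.21 (limma adjusted p 0.0186). That call was lost without the second DMSO array (0.54, adjusted p 0.165) or the second GSK126 array (0.47, adjusted p 0.224), and with arrays at equal medians (0.53, adjusted p 0.0846). Of 7 tested T cell markers 1 was called in Pfeiffer, where 24.6% of all genes were called. It was TRBC1, a T cell receptor constant region, which rose by 0.75. Without a call, CD3D changed by 0.82 and CD3G by -0.55. The summed T cell markers were 61.1 to 62.6 in DMSO and 63.0 to 63.6 in GSK126. Their part in the result was not tested. In DB TBX21 read 6.98 and 7.01, then 6.15 and 6.41, without a call (limma adjusted p 0.0632). With a pseudocount of 100 that fall was called (-0.39, adjusted p 0.0456). In SU-DHL-10 TBX21 read 7.04 and 6.76, then 6.41 and 6.37, a difference of -0.51 that was not called (limma adjusted p 0.099). It was called with quantile normalization (-0.77, adjusted p 0.00833) and with arrays at equal medians (-0.72, adjusted p 0.0145).

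CD5, a T cell surface receptor that dampens antigen receptor signalling, rose in SU-DHL-6. It read 6.10 and 5.75 in DMSO and 7.51 and 7.20 in GSK126, a change of 1.43 ± 0.35 (limma adjusted p 0.00637). Both GSK126 arrays were above both DMSO arrays and above the array median. CD5 passed the filter on low values only with these GSK126 arrays. The filter thus favours a rise in this line, and the adjusted p does not allow for that. Without the second DMSO array the estimate was 1.26 (adjusted p 0.0688), and without the first GSK126 array 1.27 (adjusted p 0.0721), neither of which passed. With the mean of both CD5 probe sets it was 0.95 (adjusted p 0.0545). The second CD5 probe set moved from 4.52 and 4.80 to 5.35 and 4.91 and stayed below the median. In the other 9 lines CD5 changed by -0.37 to 0.34 with no call. The summed T cell markers were 51.6 to 52.6 in DMSO and 51.2 to 56.3 in GSK126 in SU-DHL-6. Their part in the result was not tested.

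**Figure D5:**
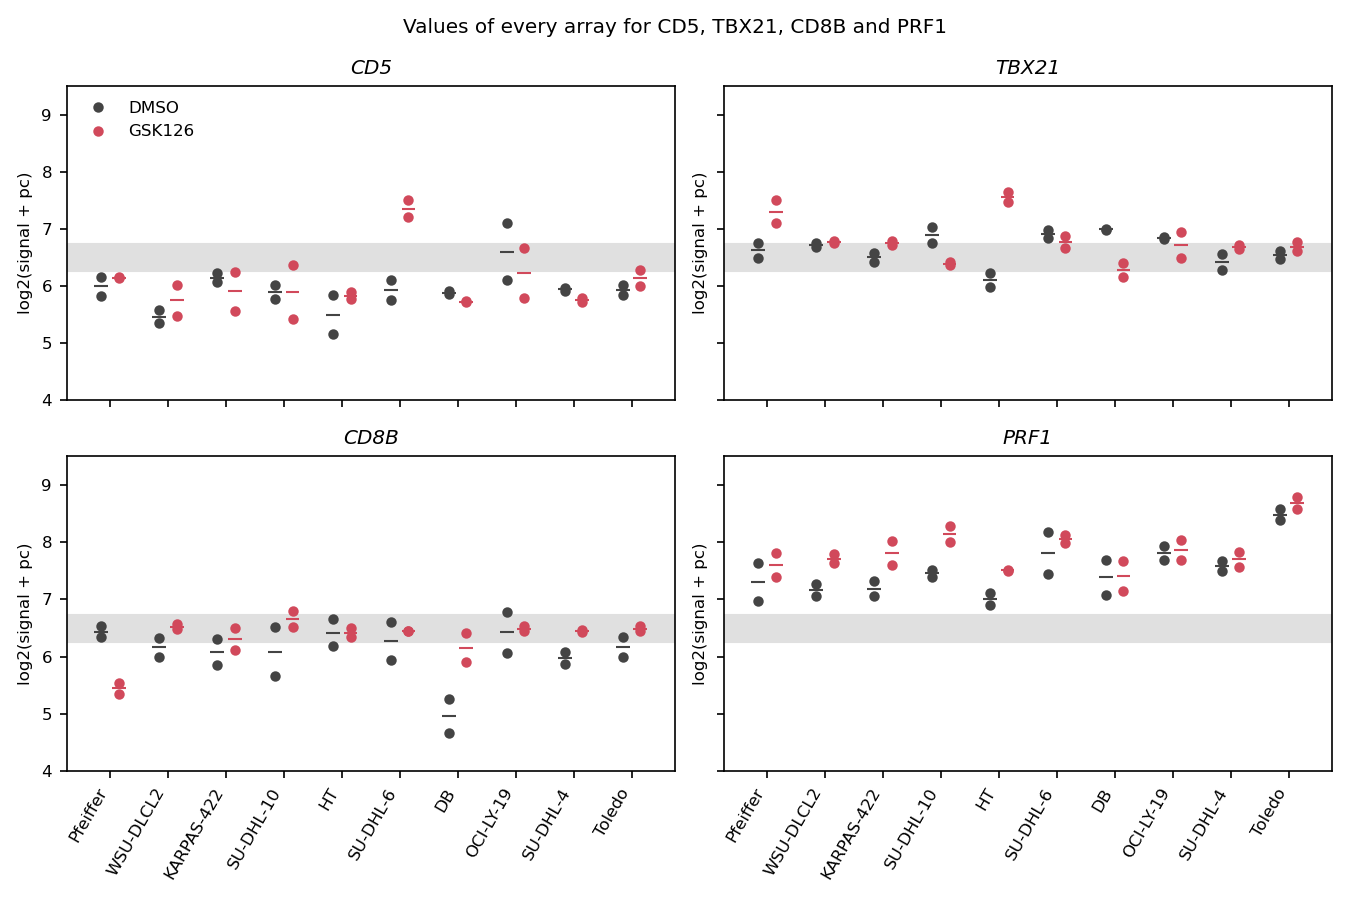
Each point is 1 array, log2(signal + pseudocount, pc) on the vertical axis, for CD5, TBX21, CD8B and PRF1 in 10 lines, with DMSO in grey and GSK126 in red, short bars at the mean of 2 arrays and a grey band over the range of array medians. CD5 in SU-DHL-6 and TBX21 in HT move from below the band to above it, and PRF1 lies above it on every array.

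LCK was called risen in OCI-LY-19 and KARPAS-422, the lines with its lowest vehicle levels, and its values in other lines went both ways without a call. In OCI-LY-19 it read 5.23 and 4.73 in DMSO and 6.52 and 5.76 in GSK126, a change of 1.16 ± 0.20 (limma adjusted p 0.000523), still below the array median. Its second probe set there went from 6.25 and 5.86 to 7.34 and 7.25. In KARPAS-422 LCK read 6.82 and 7.39, then 7.67 and 8.20, a change of 0.83 ± 0.20 (limma adjusted p 0.00183). Without the first GSK126 array the OCI-LY-19 estimate was 0.78 (adjusted p 0.0634), and with a pseudocount of 100 it was 0.43 (adjusted p 0.0554). Without the first DMSO array the KARPAS-422 estimate was 0.55 (adjusted p 0.0899), and without the second GSK126 array 0.56 (adjusted p 0.0837). In SU-DHL-6, a line with high LCK, it read 12.53 and 12.50, then 11.99 and 11.92, and this decrease of 0.56 was not called (limma adjusted p 0.0718). It was called with arrays at equal medians (-0.74, adjusted p 0.00958). The same fall was called with a pseudocount of 100, the mean of both probe sets, the replicate number as a block, and that line fitted alone. In Pfeiffer LCK read 7.82 and 7.85, then 7.68 and 7.04, a difference of -0.48 without a call (limma adjusted p 0.0793). With quantile normalization it was called (-0.63, adjusted p 0.0158). This fall was also called with arrays at equal medians, a pseudocount of 100, the mean of both probe sets and the replicate number as a block. In WSU-DLCL2 LCK read 12.32 and 12.17, then 12.64 on both arrays, a difference of 0.40 without a call (limma adjusted p 0.154). With that line fitted alone this rise was called (adjusted p 0.00601), as it was with a pseudocount of 100 and with the replicate block.

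LEF1 was called in opposite directions in a pair of mutant lines. In Pfeiffer, where it was high, it read 10.72 and 10.67, then 11.31 and 11.25, a rise of 0.59 ± 0.14 (limma adjusted p 0.0019). In KARPAS-422, where it was already below the median, it read 4.96 and 5.23, then 4.30 and 4.35, and fell by 0.77 ± 0.14 (limma adjusted p 7.5e-05). These lines were chosen for their opposite calls, so the difference between the responses, 1.36 ± 0.20, is a description. The KARPAS-422 value depended on the pseudocount: it was -0.19 (adjusted p 0.114) with a pseudocount of 100 and -2.39 with 1. The Pfeiffer call was lost with arrays at equal medians (0.44, adjusted p 0.0564) and with a pseudocount of 1 (0.59, adjusted p 0.0555).

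CD247 fell in 2 mutant lines. In KARPAS-422 it read 12.01 and 11.94, then 11.24 and 11.28, and fell by 0.72 ± 0.15 (limma adjusted p 0.000418). In SU-DHL-10 it read 9.78 and 9.89, then 9.23 and 8.97, and fell by 0.73 ± 0.15 (limma adjusted p 0.000617). Treated and vehicle arrays did not overlap in either line. With the mean of both probe sets in place of the brighter one the falls were not called (-0.49, adjusted p 0.093 and -0.49, adjusted p 0.111). CD3D and CD3G, high in KARPAS-422, were not called there. CD3D went from 12.39 and 12.29 to 11.82 and 11.78, a difference of -0.54 (limma adjusted p 0.528), and it was called with that line fitted alone (adjusted p 0.000941). CD3G went from 11.94 and 11.74 to 11.64 and 11.96 (limma adjusted p 0.955). CD8A in Pfeiffer went from 13.68 and 13.65 to 13.73 and 13.94, also without a call (limma adjusted p 0.869). The fit shares 1 estimate of spread over all lines, and in most of them CD3D, CD3G and CD8A were dim. A missing call in the line where they were high therefore does not show that their level was unchanged.

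CD8B was called in 2 lines in opposite directions, at levels near or below the median. In Pfeiffer it went from 6.53 and 6.35 to 5.35 and 5.54, a fall of 0.99 ± 0.31 (limma adjusted p 0.0191). In DB it went from 4.66 and 5.26 to 6.41 and 5.90, a rise of 1.20 ± 0.31 (limma adjusted p 0.0271). The lines were again chosen for their opposite calls, and the difference of 2.19 ± 0.44 between them is a description. The probe sets on which CD8B was high in Pfeiffer changed by -0.13 and 0.05 there. The Pfeiffer call was lost without any 1 of its 4 arrays, with estimates of -1.09 to -0.90 and adjusted p-values of 0.0503 to 0.117. The DB call was lost without the first DMSO array (0.89, adjusted p 0.338) or the first GSK126 array (0.94, adjusted p 0.32). It was also lost with a pseudocount of 100 (0.44, adjusted p 0.0941), the mean of all probe sets (0.46, adjusted p 0.263) and the probe set of largest variance (0.93, adjusted p 0.233).

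PRF1 was higher in GSK126 in all 10 lines, by 0.02 in DB to 0.68 in SU-DHL-10, and was called in none of them. In SU-DHL-10 it read 7.40 and 7.51, then 8.28 and 7.998 (limma adjusted p 0.0625), and in KARPAS-422 7.32 and 7.06, then 7.60 and 8.03 (limma adjusted p 0.0656). Over the 7 mutant lines the mean change was 0.36 ± 0.11 (limma adjusted p 0.0847), and over the 3 wild type lines it averaged 0.25. With quantile normalization, arrays at equal medians or the probe set of largest variance, 9 of 10 lines were higher in GSK126. The lowest change was then -0.01, -0.02 and -0.03 in turn. With the mean of both PRF1 probe sets the rise was called in WSU-DLCL2 (0.91, adjusted p 0.0205) and SU-DHL-10 (0.92, adjusted p 0.0266).

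The remaining tested genes, CD3D, CD3E, CD3G, CD6, CD7, CD8A, CD4, CD28, ZAP70, LAT, BCL11B, KLRD1, GZMA, GZMB and SH2D1A, were called in no line. The largest change among them was in CD8A, which went from 4.57 and 4.85 to 6.32 and 6.01 in SU-DHL-4, a difference of 1.46 ± 0.53 (limma adjusted p 0.171). CD3E in SU-DHL-10 went from 6.92 and 5.21 to 7.16 and 7.22 (1.12 ± 0.40, limma adjusted p 0.0532). Without its first DMSO array it was called, at 1.97 (adjusted p 0.00153). KLRD1 in SU-DHL-10, where it had been high, went from 7.32 and 6.94 to 6.38 and 5.62 and was not called (-1.13 ± 0.57, limma adjusted p 0.192). All 3 KLRD1 probe sets were lower in GSK126 in that line, and the mean of the 3 was called (-1.32, adjusted p 0.00143). The main KLRD1 probe set was above the array median only on the 2 DMSO arrays of SU-DHL-10. KLRD1 passed the filter on low values through these arrays, which favours a fall there, so that call is a description. CD6 depended on the probe set in DB. The main one changed by 0.46, while the one with the largest variance went from 4.99 and 4.92 to 7.27 and 8.20, a change of 2.78 (limma adjusted p 0.00125), which was looked up after the data had been seen.

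Across lines no gene of the set was called. For the mean response of the mutant lines limma called 0 of 22 genes, against 0.00657% of all genes, and 1 of the 22 had an unadjusted p under 0.05. For the difference in response between genotypes 0 of 22 were called (0% of all genes), and CD7 had an unadjusted p of 0.0268. Its mean response was -0.24 in mutant and 0.43 in wild type lines. For the slope of the response on the logarithm of growth IC50, 0 of 22 were called (0% of all genes), and CD7 had an unadjusted p of 0.00846 with a slope of 0.49 ± 0.15 (limma adjusted p 0.43).

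Other genes of the same pathways were examined beside the set, and their counts stand against 12.7% of all gene-line pairs called, 7.55% risen and 5.13% fallen. Among pairs above the median in DMSO the share was 15.4%, and among pairs below it 6.24%. Of 14 tested T cell signalling and adaptor genes, 18 of 140 gene-line pairs rose and 6 fell, or 17.1%, with line medians from -0.05 to 0.31. Many of these genes were already expressed: 7 to 11 of the 15 measured were above the median in DMSO in each line. PTPN22, a phosphatase that restrains T cell receptor signalling, was called in 5 lines, 4 risen and 1 fallen. It changed by 1.41 ± 0.18 in Toledo (limma adjusted p 0.000106) and by -0.62 in SU-DHL-10. FYN, a kinase related to LCK, rose in 4 lines by 0.70 to 0.88. PAG1, a membrane adaptor, rose in Pfeiffer by 0.63 and fell in 3 lines by 0.26 to 0.29. SIT1, another transmembrane adaptor, rose by 1.78 ± 0.09 in KARPAS-422 (limma adjusted p 5.05e-15) and by 0.42 in WSU-DLCL2, and fell by 0.51 in SU-DHL-6. RASGRP1, an activator of Ras, rose in 2 lines, by up to 1.54 in SU-DHL-6. LCP2, the adaptor SLP-76, rose in KARPAS-422 by 1.19 and fell in 1 other line.

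Of 14 tested T and NK transcription factors outside the set, 23 of 140 pairs rose and 3 fell, or 18.6%, with line medians from -0.05 to 0.47. The share was 12.7% over all pairs and 15.4% over pairs above the median in DMSO. In each line 7 to 9 of the 15 factors measured were above it. ID2, an inhibitor of E proteins needed for NK cells, rose in 6 of the 7 mutant lines. Its rise was 2.88 ± 0.17 in KARPAS-422 (limma adjusted p 1.24e-13), where its DMSO mean of 6.33 was the lowest of the 10 lines. NFIL3 rose in 4 lines, by 0.90 in Pfeiffer, and fell in WSU-DLCL2 by 0.75. TOX2 rose in Pfeiffer by 1.91, in SU-DHL-10 by 1.22 and in DB by 1.07. IKZF2, the Ikaros family factor Helios, rose in 3 lines, by 0.83 in Pfeiffer. PRDM1, encoding Blimp-1 of plasma and effector T cells, rose in 2 lines, by 2.77 ± 0.36 in Pfeiffer. ETS1 rose in 2 lines, by 0.46 in OCI-LY-19.

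Of 10 tested surface and cytokine receptors, with line medians from -0.14 to 0.41, 6 of 100 pairs rose and 0 fell. That was 6%, against 12.7% of all pairs and 6.24% of pairs below the median in DMSO. In each line 1 to 5 of the 15 receptors measured were above it. CD27, a receptor of memory B cells and T cells alike, supplied 4 of the 6 rises, by 0.33 to 0.55. LAG3 rose in KARPAS-422 by 1.43 (limma adjusted p 0.0476) and IL2RB in SU-DHL-4 by 1.12 (limma adjusted p 0.0239). Of 11 tested NK receptor and cytotoxic genes, 6 of 110 pairs rose and 1 fell, or 6.36%, against the same 12.7% and 6.24%. In each line 4 to 7 of the 20 measured were above the median in DMSO. SRGN, the proteoglycan of secretory granules, rose in 5 mutant lines, by 4.21 ± 0.13 in SU-DHL-10 (limma adjusted p 7.02e-19) and 3.91 in KARPAS-422. CCL5 fell in KARPAS-422 by 1.12, and HCST, the adaptor DAP10, rose there by 0.90.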

How the data were processed

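Expression was measured on 40 Affymetrix arrays, grouped from the labels by cell line and treatment into 20 groups of 2. The deposited values are log2 signals made with MAS5, per the submitters' processing notes; the version was not stated there. Back on the linear scale each array had a trimmed mean of 500, and detection calls were not used.

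Symbols came from the platform annotation, which can be old. A gene's value was that of its brightest probe set with 1 symbol, by the mean over all arrays, and 15211 genes whose probe set was above the array median on at least 2 arrays were tested. Values were log2(signal + 17.7), the pseudocount being the median over arrays of the 25th percentile. limma 3.58.1 (R 4.3.3) fitted 20 group means over all 40 arrays with an intensity trend, two-sided, with Benjamini-Hochberg adjustment over all genes tested and a call at an adjusted p under 0.05. Across lines, the line was the replicate. The procedure was tested on simulated data. The number of arrays limits precision, and dim probe sets scatter more.

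Genes named were all 31 measured, with array values for those called in a line or above the median in at least 8 lines, and, in the companion lists, up to 6 genes called in most lines. The gene set and all lists were chosen with earlier results of these data known. The replicate numbers did not pair the arrays: correlations of same-numbered deviations were -0.04 to 0.07. An R tag in the descriptions, meaning not given, was tried as a batch term across lines; each line had 1 tag. Alternatives covered the pseudocount, normalization, filter, probe set, block and leaving out each array or line.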

Additional observations from a re-analysis of the deposited data

Results flagged for a closer look

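For 53 values, levels in DMSO and responses, the 7 mutant lines were examined for a line far from the others, and 9 were picked out. The rule picks about 1 in 20 by chance only for independent values that spread normally, which was not tested for these genes. The count of 9 is therefore not read as more than chance gives. CD3D at 12.34 and CD3G at 11.84 in KARPAS-422 lay far above the next lines at 6.02 and 5.41. CD8A at 13.66 in Pfeiffer lay far above 6.47. ZAP70 at 8.64 in Pfeiffer stood above the next mutant line at 6.33, and the wild type line OCI-LY-19 was higher still. KLRD1 at 7.13 in SU-DHL-10 stood above 5.82. CD5 at 5.47 in WSU-DLCL2 and CD8B at 4.96 in DB were the low ends of narrow ranges, with the nearest lines at 5.89 and 5.98.

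Of the responses, CD5 in SU-DHL-6 at 1.43 stood above the next mutant line at 0.29. ZAP70 in KARPAS-422, at -0.59, stood below the next at 0.06, without a call of its own (limma adjusted p 0.33).

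The responses of CD8B in DB and Pfeiffer differed by 2.19, and those of LEF1 in Pfeiffer and KARPAS-422 by 1.36. These lines were chosen because they were called in opposite directions, so both differences are descriptions.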

How the results depend on the processing

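The number of tested gene-line pairs called was 11 and ran from 9 with each line fitted alone to 16 with the mean of all probe sets. Of 238 recomputed counts, 200 stayed within 1.5 times the first value and 38 moved, and no called response changed direction under the alternatives run. With a pseudocount of 1, SU-DHL-10 had 2 genes called. With 100, WSU-DLCL2 had 1, SU-DHL-10 3 and SU-DHL-6 2. Quantile normalization gave 2 in WSU-DLCL2 and 2 in SU-DHL-10, and equal medians gave 2 in each of these and in SU-DHL-6. Equal medians moved the median of all genes by -0.14 in Toledo and Pfeiffer, -0.15 in KARPAS-422, -0.17 in SU-DHL-6, -0.22 in WSU-DLCL2 and -0.23 in SU-DHL-10. Without a filter OCI-LY-19 had 2, the added gene being NKG7 (1.02, limma adjusted p 0.0104). With at least 4 arrays above the median SU-DHL-6 had 0 and 1 pair crossed the median upward, since CD5 was then not tested. The mean of all probe sets gave 2 in WSU-DLCL2, 4 in SU-DHL-10 and 1 pair crossing. The probe set with the largest variance, chosen after seeing the data, gave 1 and 2 in those lines. Each line fitted alone gave 1 in Pfeiffer, 1 in WSU-DLCL2, 2 in HT and 0 in DB. A threshold at the 60th percentile left 43 pairs above in DMSO in place of 75. Where no reason is given, the cause was not tested. LAT and CD247 in WSU-DLCL2 and TBX21 in SU-DHL-10 were the genes added by quantile normalization and equal medians in those lines, and LCK was the gene added in SU-DHL-6, all as falls.

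With the replicate number as a block, WSU-DLCL2 had 1, SU-DHL-10 2, SU-DHL-6 2 and DB 0 genes called, 13 pairs in all. The block lowered the calls over all genes from 395 to 279 in SU-DHL-4 and from 25 to 16 in Toledo. As the numbers share only a name, a call lost under it is not read as a weaker effect.

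Leaving out 1 array at a time gave 1 to 3 genes in Pfeiffer, 0 to 1 in WSU-DLCL2, 1 to 2 in SU-DHL-10, 1 to 2 in HT, 0 to 1 in SU-DHL-6, 0 to 1 in DB and 0 to 1 in OCI-LY-19. With the R tag as a batch term, or without any 1 line, the 4 comparisons across lines called 0 of the tested T and NK genes.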
